A study of Mus musculus with 22 samples.

Results

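The 35 genes described here encode integrins, the cell surface receptors for extracellular matrix, and proteins of the focal adhesions that form around them. They were taken by name: 12 integrin alpha chains, 8 integrin beta chains, 9 linkers between integrins and actin, and 6 signalling and cytoskeletal proteins. Probes were matched to these names through their transcript identifiers. Of the 35 genes, 34 were on the array with 47 probes, among 20018 named genes and 55681 probes, and Itga10 was matched by no probe. Each gene was read by its brightest probe.

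The cells were FE1, a lung epithelial line derived from a transgenic mouse, the MutaMouse. They spent 24 h with Mitsui7, multi-walled carbon nanotubes sonicated into culture medium, at 12.5 µg/ml on the 6 arrays called low dose here, at 25 µg/ml on the 5 called medium dose and at 100 µg/ml on the 6 called high dose, and 5 control arrays held cells given 0 µg/ml. On each of the 22 arrays the sample carried the dye Cy5 and a reference RNA from 11 mouse cell lines carried Cy3, so that every level below is a log2 ratio of sample to reference. The groups were compared in 1 model with slide as a term, and all comparisons against control share the same 5 control arrays. Cells of every group, controls included, were grown with 2% fetal bovine serum, antibiotics and epidermal growth factor, and were detached with trypsin before RNA was extracted. The model is a single cell line. The paper reports fewer separate exposure experiments than there were arrays in a group, so the arrays of a group are not all independent. The labels do not say which arrays came from separate cultures. The p-values thus measure only the spread between these samples, which may in part be technical.

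An integrin is a pair of an alpha and a beta chain that together bind a matrix protein outside the cell. Inside, talin and kindlin bind the tail of the beta chain and switch the receptor on, linkers such as alpha-actinin and the ILK, PINCH and parvin complex couple it to actin, and focal adhesion kinase, Src and paxillin relay the signal. Zyxin and VASP join mature adhesions and stress fibres that are under tension.

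A probe counted as detected in a comparison when its Cy5 signal passed the negative control level in at least 4 arrays of either group. A call needed detection, an adjusted p of at most 0.05 from limma with Benjamini-Hochberg adjustment over all probes, and a change of at least 1.5-fold. The arrays detected 23688 to 39139 probes each. In correlations of slide-adjusted log ratios, low dose array 1 and medium dose array 2 lay apart from their own groups, with mean correlations of -0.159 and -0.174 to the other arrays of the same dose. Without these 2 arrays together, 2, 3 and 6 members were called as the dose went up, the same counts as with them, although at the medium dose Tln1 was then called (-0.625) and Zyx was not (0.567). Of the 8 epithelial markers, Krt7, Krt8, Krt18 and Cldn7 were detected on 22 arrays, Krt19 on 21 and Cldn4 on 16. Cdh1, the adhesion molecule that defines epithelium, was detected on 0 arrays and Epcam on 10, with 0 well above background. Of the 7 alveolar and airway markers, Nkx2-1 and Sftpa1 were detected on 0 arrays, Foxj1 on 2 and Sftpb on 3, and Sftpd on 16, Sftpc on 17 and Scgb1a1 on 21. All 7 markers of fibroblasts and smooth muscle were well above background on 22 arrays. So were the leukocyte markers Cd14, Cd3e and Itgam and the endothelial marker Kdr. Of the other leukocyte markers on the array, Ptprc was well above background on 19 arrays, Adgre1 on 11 and Cd79a on 0. Of the other endothelial markers, Pecam1 was on 21, and Cdh5 and Tek on 0. In a culture, fewer cells of a type and less RNA per cell cannot be told apart.

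At the low dose 29 of the 34 genes on the array were detected, of which 0 rose and 2 fell, against 5.28% of all detected named genes called (2.21% higher and 3.06% lower). At the medium dose 28 were detected, of which 1 rose and 2 fell, with 8.96% of all genes called (4.28% higher and 4.68% lower). Of the 28 detected at the high dose, 2 rose and 4 fell, with 11.9% of all genes called (5.47% higher and 6.44% lower). The genes called were the collagen receptor chains Itga1 and Itga11, the laminin receptor chain Itga6, the beta chain Itgb3, talin 1 (Tln1) and zyxin (Zyx). The promoters of the genes called at more than 1 dose are shown next.

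The sequences are the 250 bases before the RefSeq start of each gene on GRCm38.p6, 5′ to 3′ on the strand of the gene. Capitals mark matches to an AP-1 motif (TGANTCA) or an Sp1 motif (GGGCGG). Itga11 lies on the plus strand at chr9:62677605-62677854, Itga1 on the minus strand at chr13:115101965-115102214, and Zyx on the plus strand at chr6:42349578-42349827.
Itga11: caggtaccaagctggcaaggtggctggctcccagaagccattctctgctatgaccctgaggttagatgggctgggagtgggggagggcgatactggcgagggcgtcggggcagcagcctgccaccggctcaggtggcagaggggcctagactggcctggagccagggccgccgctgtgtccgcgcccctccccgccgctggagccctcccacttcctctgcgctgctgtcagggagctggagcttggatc
Itga1: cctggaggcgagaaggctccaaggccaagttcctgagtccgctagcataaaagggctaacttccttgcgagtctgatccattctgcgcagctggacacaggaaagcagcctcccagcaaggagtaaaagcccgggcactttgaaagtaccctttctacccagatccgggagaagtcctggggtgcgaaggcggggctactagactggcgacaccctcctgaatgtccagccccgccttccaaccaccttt
Zyx: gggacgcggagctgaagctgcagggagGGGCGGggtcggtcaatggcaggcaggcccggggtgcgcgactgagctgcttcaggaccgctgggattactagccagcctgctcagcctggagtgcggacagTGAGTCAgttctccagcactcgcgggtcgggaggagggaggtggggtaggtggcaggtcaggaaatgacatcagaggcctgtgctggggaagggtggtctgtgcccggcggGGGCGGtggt

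The Zyx promoter held an AP-1 match 121 bases before the start and Sp1 matches 223 and 10 bases before it. No match to these motifs, to a TEAD motif (GGAATG) or to a CArG box was present in these windows of Itga11 and Itga1, searched on both strands, nor in that of Tln1 (chr4:43562584-43562833, minus strand). Among 32851 mouse promoters of the same length, 6.75% held the AP-1 motif, 32.7% the Sp1 motif, 12.6% the TEAD motif and 1.47% a CArG box. A match is a description of letters in this window and says nothing of binding.

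Among the receptors, Itga11, which with Itgb1 forms a receptor for fibrillar collagen, had the largest fall of the detected members at each dose. Its log2 ratios in the 5 control arrays were 1.23, 0.50, 0.80, 0.59 and 0.17. The low dose arrays ran from -0.88 to -0.23 with a median of -0.71, and the high dose arrays from -1.81 to -1.15 with a median of -1.48. The medium dose arrays gave -0.67, -1.35, -1.04, -1.17 and -1.18. Every exposed array thus lay below every control array, and every high dose array lay below every low dose array. Itga11 fell by 1.29 ± 0.16 (SE) at the low dose, by 1.74 ± 0.17 at the medium dose and by 2.11 ± 0.16 at the high dose on the log2 scale, with limma adjusted p of 6.54e-05, 1.44e-06 and 4.42e-08. These are 2.44-fold, 3.34-fold and 4.32-fold decreases. Over the 42 alternatives that kept the 1.5-fold threshold the high dose change ran from -2.95 with the scanner software's log ratio to -1.92, called in each. Of the variation of Itga11 over the 22 arrays, 87.6% lay between the groups once slide was taken out first.

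**Figure D1:**
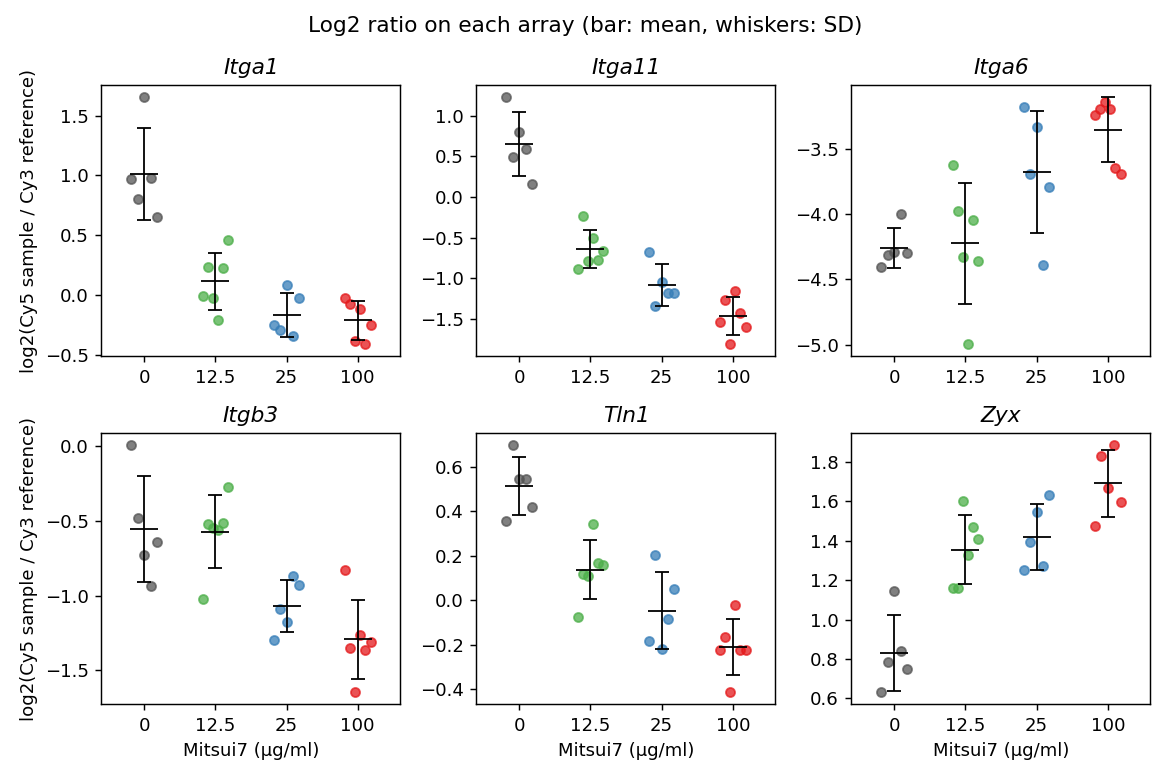
Log2 ratio of sample to reference (y axis) on each array for the 6 members called at any dose, by Mitsui7 concentration in µg/ml (x axis). Points are arrays, bars are group means and whiskers are SDs. Itga11, Itga1 and Tln1 step down and Zyx steps up from the first exposed group on, whereas Itga6 and Itgb3 at 12.5 µg/ml overlap the control values, with low dose arrays of Itga6 on both sides of them.

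Itga1, which with Itgb1 forms another collagen receptor, also fell at each dose. Its control values were 0.97, 0.80, 1.65, 0.98 and 0.66. The low dose arrays ran from -0.21 to 0.46 (median 0.11) and the high dose arrays from -0.41 to -0.02 (median -0.19). The medium dose values were -0.25, -0.30, 0.08, -0.34 and -0.03. No exposed array reached a control value, and the 3 exposed groups overlapped with each other. Itga1 changed by -0.89 ± 0.15 (SE) at the low dose, by -1.18 ± 0.16 at the medium dose and by -1.22 ± 0.15 at the high dose, with limma adjusted p of 0.00136, 5.57e-05 and 1.66e-05. The spot was dim, with a signal well above background on 4 of 5 controls, 4 of 6 low dose arrays, 3 of 5 medium dose arrays and 2 of 6 high dose arrays, so the size of these changes is uncertain. Over the 42 alternatives that kept the 1.5-fold threshold the high dose change ran from -2.60 with the scanner software's log ratio to -0.94 with the Cy5 signal alone, called in each. The other probe of Itga1 was not detected and gave -0.24, -0.31 and -0.34, none called.

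Some markers of fibroblasts and smooth muscle fell at the same doses as these collagen receptor chains. Of the 7 markers (Col1a1, Col1a2, Vim, Pdgfra, Pdgfrb, Acta2 and Thy1), 3 fell at the low dose, 4 at the medium dose and 4 at the high dose, and 0 rose (3.06%, 4.68% and 6.44% of all detected genes were called lower). Vim gave 0.14, 0.39 and 0.14 and Thy1 0.10, -0.16 and -0.02, none called. Their summed share of the Cy5 signal of an array ran from 0.261 to 0.307% in controls. It ran from 0.175 to 0.224% on low dose arrays, from 0.163 to 0.192% on medium dose arrays and from 0.128 to 0.182% on high dose arrays. This share sums raw signals and so rests mainly on Col1a2, Vim, Col1a1 and Acta2, with median Cy5 signals of 93354, 62059, 43221 and 37008.5. Thy1 (1536), Pdgfra (367) and Pdgfrb (205) add little to it. The part of these markers in the falls of Itga11 and Itga1 was not tested. Of the 8 epithelial markers 1, Krt7, fell at the medium dose and again at the high dose. Of the alveolar and airway, leukocyte and endothelial markers limma called 0 at each dose, with 2, 0 and 0 at an unadjusted p under 0.05 at the high dose.

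Itga6, the alpha chain of laminin receptors with Itgb1 or Itgb4, went the other way. The control values were -4.40, -4.31, -4.29, -4.00 and -4.30. The low dose arrays ran from -5.00 to -3.62 (median -4.19) and the high dose arrays from -3.69 to -3.14 (median -3.21). The medium dose values were -3.18, -3.69, -3.33, -4.39 and -3.79. The high dose arrays all lay above the controls, while the low dose arrays lay on both sides of them. Itga6 rose by 0.92 ± 0.19 (SE) at the high dose, which is 1.90-fold (limma adjusted p = 0.00294). The changes at the low and medium dose were 0.05 ± 0.19 and 0.58 ± 0.20 (limma adjusted p = 0.945 and 0.0987) and were not called. The medium dose change was called without slide 2 (0.827), control array 4 (0.763) or medium dose array 4 (0.73). Without slide 1 the high dose change was 0.754 with a limma adjusted p of 0.126, and with median centring of the arrays in place of loess it was 0.908 with 0.0701.

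Of the other alpha chains of collagen and laminin receptors, Itga3 changed by 0.06, -0.13 and -0.17 and Itga7 by -0.01, -0.11 and -0.09 over the 3 doses, none called. Itga2 was not detected. Among the alpha chains that bind RGD and other sequences, the fibronectin receptor chain Itga5 gave 0.42, -0.04 and 0.21 and the vitronectin receptor chain Itgav gave 0.15, -0.04 and -0.41, none called. Itga4, Itga8 and Itga9 were not detected in any comparison with control.

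Among the beta chains, Itgb3, the partner of Itgav in a receptor for vitronectin and fibronectin, fell at the high dose. The controls gave 0.01, -0.48, -0.73, -0.94 and -0.64. The low dose arrays ran from -1.02 to -0.27 (median -0.54) and the high dose arrays from -1.65 to -0.83 (median -1.33). The medium dose values were -1.29, -1.09, -1.18, -0.87 and -0.93. Control array 4 and high dose array 1 overlapped, and the low dose arrays lay over the range of the controls except for the lowest. The change at the high dose was -0.74 ± 0.16 (SE), a 1.67-fold decrease (limma adjusted p = 0.00434). At the low and medium dose it was -0.02 ± 0.16 and -0.52 ± 0.16 (limma adjusted p = 0.980 and 0.0759), not called. The medium dose change was called without slide 2 (-0.662) or control array 4 (-0.632). The call at the high dose was lost with the Cy5 signal alone in place of the ratio (-0.573, limma adjusted p = 0.0639) and with median centring (-0.761 with 0.104). The other probe of Itgb3 was not detected.

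Itgb1, the common partner of most alpha chains named here, changed by 0.14 ± 0.17 (SE), 0.19 ± 0.18 and 0.09 ± 0.17 in order of dose, none called. Itgb4, the beta chain of hemidesmosomes, gave -0.01, -0.33 and -0.14, and Itgb5, which pairs with Itgav, gave -0.29, -0.25 and -0.21. The leukocyte chains Itgb2 and Itgb7 were not called either, with changes from -0.41 to -0.22 and from -0.20 to 0.09. Without control array 1, Itgb2 was called lower at the medium dose (-0.793) and at the high dose (-0.731). Itgb6 was not detected in any comparison with control and Itgb8 only in that of the low dose, where it changed by 0.11.

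**Figure D2:**
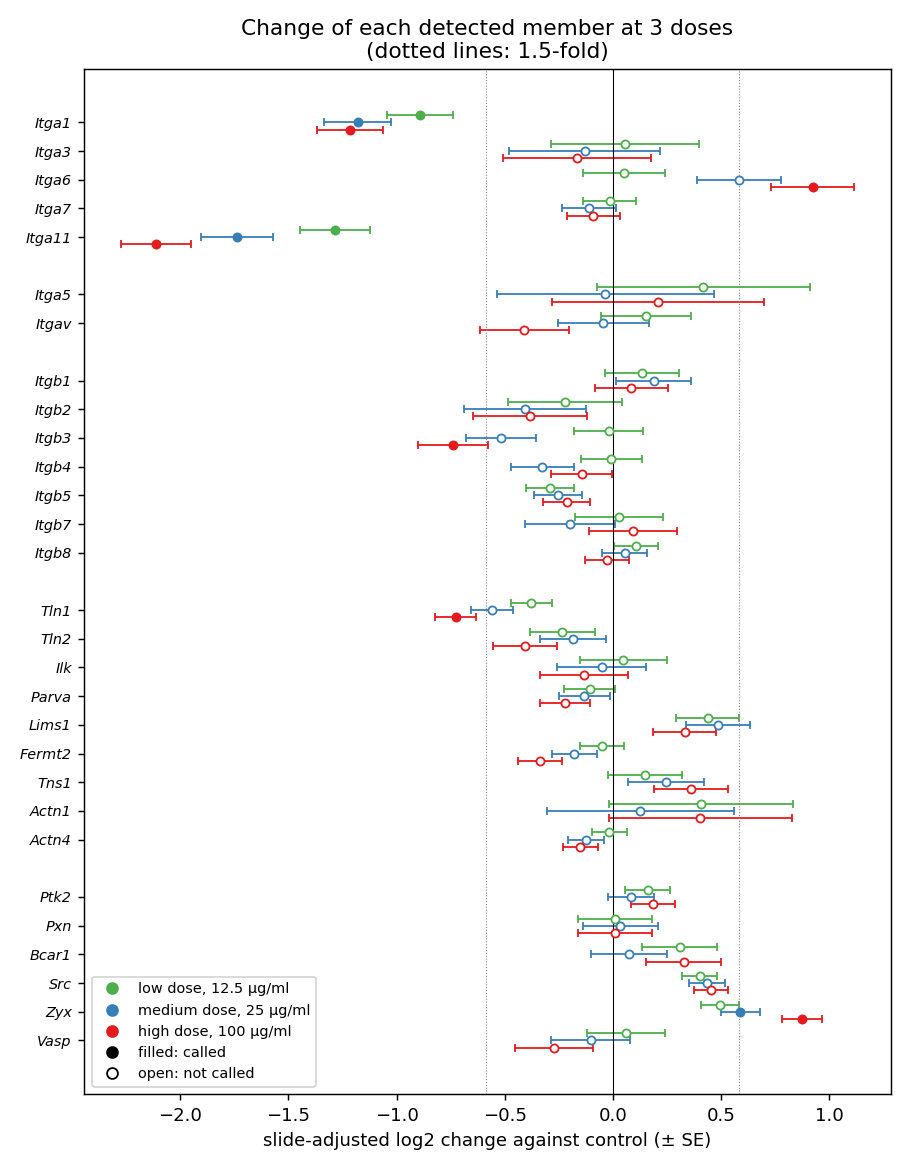
Slide-adjusted log2 change against control with its SE (x axis) for the 29 members detected in at least 1 comparison with control (y axis, grouped by role from alpha chains at the top to signalling at the bottom), at the 3 doses. Filled points were called and open points were not, and dotted lines mark 1.5-fold. The filled points belong to Itga1, Itga11, Itga6, Itgb3, Tln1 and Zyx, and every open point lies between the dotted lines.

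Among the linkers, Tln1, the talin that binds the beta chain tail and actin, had a lower median ratio at each higher dose. The controls gave 0.36, 0.70, 0.55, 0.54 and 0.42. The low dose arrays ran from -0.07 to 0.35 (median 0.14) and the high dose arrays from -0.41 to -0.02 (median -0.22). The medium dose values were -0.18, 0.20, -0.22, -0.09 and 0.05. No exposed array reached the lowest control. Tln1 fell by 0.73 ± 0.10 (SE) at the high dose, a 1.65-fold decrease (limma adjusted p = 2.98e-05). At the low and medium dose the changes of -0.38 ± 0.10 and -0.56 ± 0.10 had limma adjusted p of 0.0289 and 0.00102 but were under 1.5-fold. Its dimmer probe gave -0.21, -0.29 and -0.41, none called, and the mean of its probes at the high dose was -0.57, under 1.5-fold. With median centring the high dose change was -0.781 with a limma adjusted p of 0.0655.

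The second talin, Tln2, gave -0.23, -0.18 and -0.40, none called. Fermt2, a kindlin that activates integrins together with talin, changed by -0.34 ± 0.10 (SE) at the high dose (limma adjusted p = 0.0446), under 1.5-fold, and its other probe gave 0.17. Of the complex of ILK, PINCH and parvin, Ilk gave 0.05, -0.05 and -0.13 and Lims1, which encodes PINCH, gave 0.44, 0.49 and 0.33, none called. Without control array 1 the change of Lims1 at the medium dose was 0.604 and was called. The other probe of Lims1, nearly as bright, gave 0.21, 0.25 and 0.07 with all arrays, none called. The brightest probe of Parva, alpha-parvin, gave -0.22 ± 0.12 (SE) at the high dose and was not called, whereas its other probes were called lower there, with -0.71 ± 0.20 and -0.78 ± 0.18 (limma adjusted p = 0.0325 and 0.00811). The probes of Parva thus disagreed at the high dose. Tns1, a tensin, gave 0.15, 0.25 and 0.36, and the alpha-actinins Actn1 and Actn4 gave 0.41, 0.13 and 0.40, and -0.02, -0.12 and -0.15, none called.

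Zyx, a LIM domain protein of mature adhesions and stress fibres, was the 1 member that rose at more than 1 dose. The control values were 0.63, 0.78, 1.14, 0.84 and 0.75. The low dose arrays ran from 1.16 to 1.60 (median 1.37), and the medium dose arrays gave 1.25, 1.40, 1.55, 1.27 and 1.63. The high dose arrays gave 1.48, 1.83, 1.67, 1.88 and 1.59, with high dose array 3 left out of the fit for this probe because its spot was marked by the scanner software. All exposed values lay above all controls, the closest being low dose array 2 at 1.16 and control array 3 at 1.14. Zyx rose by 0.59 ± 0.09 (SE) at the medium dose and by 0.88 ± 0.09 at the high dose (limma adjusted p = 0.000382 and 2.61e-06), which are 1.51-fold and 1.84-fold. At the low dose the change of 0.50 ± 0.09 had a limma adjusted p of 0.00241 and was under 1.5-fold. The medium dose call sat at the fold threshold: it was lost without control array 1 (0.565), control array 5 (0.554), medium dose array 2 (0.566) or medium dose array 5 (0.526). With the Cy5 signal alone the medium dose change was 0.382 with a limma adjusted p of 0.293. The high dose change with median centring was 0.788 with a limma adjusted p of 0.132.

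Among the signalling proteins, Src, the tyrosine kinase that works with focal adhesion kinase, was higher on every exposed array than on every control array, with -0.25 to -0.06 on control arrays, 0.07 to 0.54 on low dose arrays, 0.03 to 0.49 on medium dose arrays and 0.20 to 0.52 on high dose arrays. Its changes of 0.40, 0.44 and 0.46 (each ± 0.08 SE, limma adjusted p = 0.00521, 0.00203 and 0.000667) were under 1.5-fold and were not called. The scanner software put its spot well above background on 0 of 5 controls and on 3 arrays of each exposed group. In the controls, the lowest signal that counts as well above background was used where it exceeds the signal of the probe. The mean Cy5 level of Src was then at least 1.13-fold, 1.12-fold and 1.21-fold higher in order of dose. These bounds cover only the floor in the controls. They compare group means without an error, and the exposed means include arrays not well above background. They are thus not minimums over the alternatives. With the scanner software's log ratio the change at the high dose was 1.42 and was called (limma adjusted p = 0.0089), and over the 42 alternatives that kept the 1.5-fold threshold it ran from 0.162 to 1.42. The bounds rest on Cy5 values after loess and quantile scaling of intensity, and dye bias is not removed from them. Ptk2, which encodes focal adhesion kinase, gave 0.16, 0.08 and 0.19, the adaptor paxillin (Pxn) gave 0.01, 0.03 and 0.01, the adaptor Bcar1 gave 0.31, 0.08 and 0.33, and Vasp, an actin regulator bound by zyxin, gave 0.06, -0.10 and -0.27, none called. Without slide 1, Bcar1 at the low dose was 0.593 and was called.

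Over the detected members the median log2 change was 0.05 at the low dose, -0.11 at the medium dose and -0.14 at the high dose, beside medians of 0.00, 0.00 and 0.01 over all detected genes. Slide-adjusted values did not overlap with the controls for 5 of 29 detected members at the low dose, where 11.6% of all detected genes did not overlap. The counts were 7 of 28 at the medium dose (16.4% of all genes) and 7 of 28 at the high dose (20.5%). At the high dose the 7 genes were Itga1, Itga6, Itga11, Tln1, Fermt2, Src and Zyx. Among these, Src was detected on 2 of 5 controls and 6 of 6 high dose arrays, and Itga1 on 5 of 5 and 3 of 6. Both thus passed the detection filter there only through the group where they were higher.

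The slides allowed a comparison of exposed and control arrays that were scanned together, on slides 1 to 4. Slide 1 held 2 arrays of each group and slides 2 to 4 held 1 each. The within-slide difference was below 0 in 12 of 12 cases for Itga11, from -2.61 to -0.83, in 12 of 12 for Itga1, from -2.04 to -0.20, and in 12 of 12 for Tln1, from -0.96 to -0.20. For Zyx it was above 0 in 11 of 11 cases, from 0.40 to 0.94. At the high dose Itga6 was above 0 on 4 of 4 slides, from 0.61 to 1.15, and Itgb3 below 0 on 4 of 4, from -0.92 to -0.33. At the low dose the differences of Itga6 ran from -0.997 to 0.559 and those of Itgb3 from -0.54 to 0.38, with both signs present. These genes were picked by their calls on the same arrays, and the 3 doses share the controls of each slide. The cases are thus neither separate nor a test of the calls. Some members not called kept their sign too. Src and Lims1 were above 0 in 12 of 12 cases and Actn1 in 11 of 12, and Itgb5 was below 0 in 11 of 12.

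**Figure D3:**
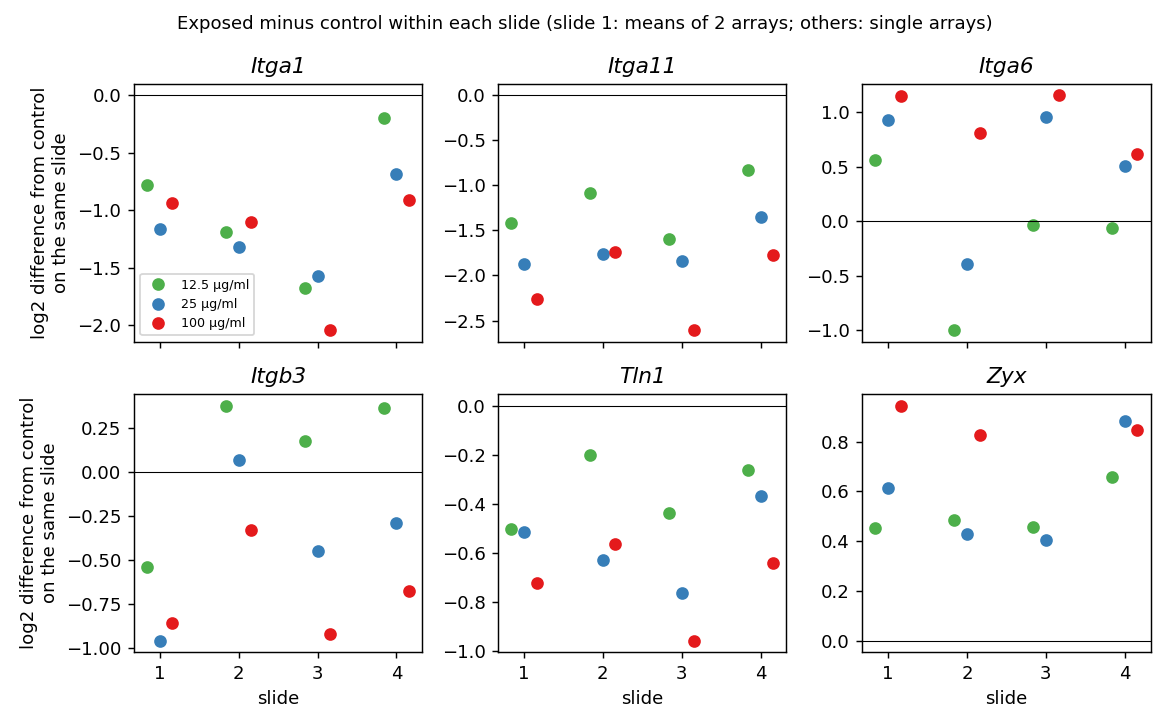
Log2 ratio of exposed minus control arrays on the same slide (y axis) for slides 1 to 4 (x axis), by dose in µg/ml; slide 1 compares means of 2 arrays and the other slides single arrays. Itga11, Itga1 and Tln1 stay below 0 and Zyx above 0 on each slide, and Itga6 and Itgb3 keep 1 sign on all slides only at 100 µg/ml.

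The doses were also compared with each other. Between the high and the low dose 1 member rose and 2 fell, with 0.463% of all detected genes called (0.0842% higher and 0.379% lower). Itga11 was lower by a further -0.83 ± 0.15 (SE), Itgb3 by -0.72 ± 0.15, and Itga6 was higher by 0.87 ± 0.18 (limma adjusted p = 0.0187, 0.0418 and 0.0399). These calls lay close to the threshold: of 42 alternative settings that kept the 1.5-fold threshold, Itga11 was called in 27, Itga6 in 17 and Itgb3 in 15. In single omissions, leaving out low dose array 3 gave limma adjusted p of 0.0511 for Itga11, 0.124 for Itga6 and 0.133 for Itgb3, and leaving out low dose array 5 gave 0.0632, 0.0671 and 0.149. Slide 5 held only low dose array 5 and high dose array 5. With slide as a term, leaving out either array or slide 5 gave the same values, each counted among the 42. Slide-adjusted values of the high and low dose did not overlap for 5 of 29 detected members (3.68% of all genes), namely Itga6, Itga11, Tln1, Fermt2 and Zyx. Between the high and medium dose and between the medium and low dose, limma called 0 members and 0% of all genes. Without adjustment 2 and 4 members had a p under 0.05 in these comparisons, and the ordinary linear model also called 0.

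Some members varied more by sample number than by dose. The samples numbered 1, which lay on slide 1, gave the 4 lowest values of Actn1, Itga5, Itga3 and Ilk over the 22 arrays. For Actn1 these arrays read -0.50 in the control, -0.50 at the low dose, -0.70 at the medium dose and 0.20 at the high dose, and the lowest of the 18 other arrays read 0.98. For Itga5 they read -1.69, -1.95, -2.22 and -1.22, and the lowest other array read -0.31. For both genes the control and exposed samples numbered 1 were low together. The group accounted for 3.41% of the variation of Actn1 and 2.31% of that of Itga5. The reference channel moved too: the log2 Cy3 signal over the array median had an SD of 1.24 for Itga5 and 0.991 for Actn1 over the 22 arrays, against a median SD of 0.414 over 14349 detected genes and 0.216 for Itga11. On slide 1 the Cy3 level of Itga5 averaged 5.04 and on the other slides 2.85, and that of Actn1 5.17 and 3.40. These slide 1 averages cover the samples numbered 1 and 2 alike. The samples numbered 2, in order of dose from the control, had ratios of 1.27, 1.56, 1.68 and 1.62 for Actn1. For Itga5 their ratios were 0.41, 0.41, 0.60 and 0.29. The SEs of the changes of these genes at the high dose were 0.49 for Itga5 and 0.42 for Actn1, against 0.16 for Itga11.

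**Figure D4:**
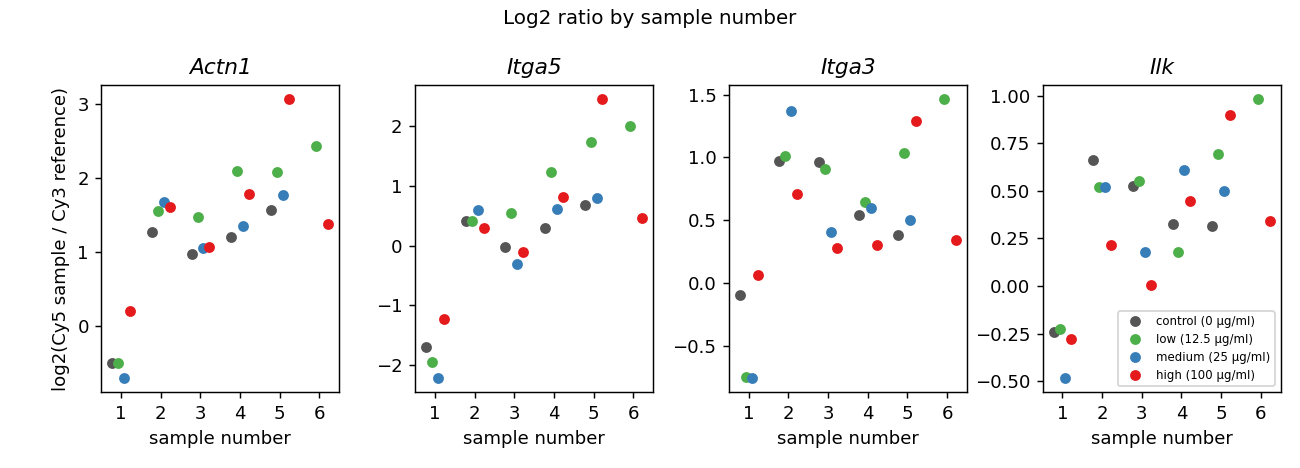
Log2 ratio of sample to reference (y axis) of Actn1, Itga5, Itga3 and Ilk against the sample number in the labels (x axis), 1 point per array with the dose by colour. The 4 samples numbered 1 lie below the 18 others for each of these genes, whichever the dose.

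Around these members, lists of further genes of the pathway were written by role. Of 26 integrin ligands, 23 were detected at the low dose, of which 2 rose and 8 fell (2.21% of all detected genes were called higher and 3.06% lower). Of the 24 detected at the medium dose 3 rose and 9 fell (4.28% and 4.68% of all genes), and of the 24 detected at the high dose 2 rose and 9 fell (5.47% and 6.44%). The median changes of the detected ligands were -0.23, -0.36 and -0.35. The largest falls at the high dose were those of the laminin chain Lama1 (-2.70), the fibrillar collagen chain Col3a1 (-1.70) and the collagen VI chain Col6a1 (-1.57). The laminin chain Lamb1 rose (0.62). The ligand list shares Col1a1 and Col1a2 with the fibroblast markers. The limma adjusted p was 9.33e-07 for Lama1, 2.22e-07 for Col3a1, 4.32e-05 for Col6a1 and 2.17e-05 for Lamb1.

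Of 12 relatives of zyxin, paxillin and VASP on the array, which were detected at each dose, 2 rose at the low dose (2.21% of all genes) and 3 at the high dose (5.47%). At the medium dose 0 were called (8.96% of all genes), and 8 had an unadjusted p under 0.05. In these comparisons 0 fell, where 3.06%, 4.68% and 6.44% of all genes were called lower in order of dose. The median changes were 0.33, 0.37 and 0.38. Those that rose at the high dose were the LIM proteins Ajuba (0.81), Pdlim1 (0.76) and Pdlim7 (0.62), with limma adjusted p of 0.00181, 0.000438 and 0.00316. Of 19 other linkers, 16, 16 and 17 were detected in order of dose. At the low dose 0 of them were called (5.28% of all genes), and 4 had an unadjusted p under 0.05. At the medium dose 1 rose (4.28% of all genes were called higher), and at the high dose 1 rose and 1 fell (5.47% and 6.44% of all genes). The linker that fell was Svil (-0.65), an actin binding protein. Of 27 other signalling genes, 26 were detected at each dose, and 5.28%, 8.96% and 11.9% of all detected genes were called in order of dose. Of the 26, 1 rose at the low dose, 1 rose and 1 fell at the medium dose, and 1 rose and 1 fell at the high dose, namely the Src family kinase Fyn (0.79) and Nedd9 (-1.03), a relative of Bcar1. The limma adjusted p was 0.000229 for Svil, 0.00835 for Fyn and 5.94e-05 for Nedd9. Of 6 hemidesmosome genes on the array 6, 5 and 5 were detected in order of dose, and of 5 further integrin alpha chains 3, 2 and 3. At each dose limma called 0 of them, against 5.28%, 8.96% and 11.9% of all detected genes. At the high dose 3 of the hemidesmosome genes and 0 of the alpha chains had an unadjusted p under 0.05.

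**Figure D5:**
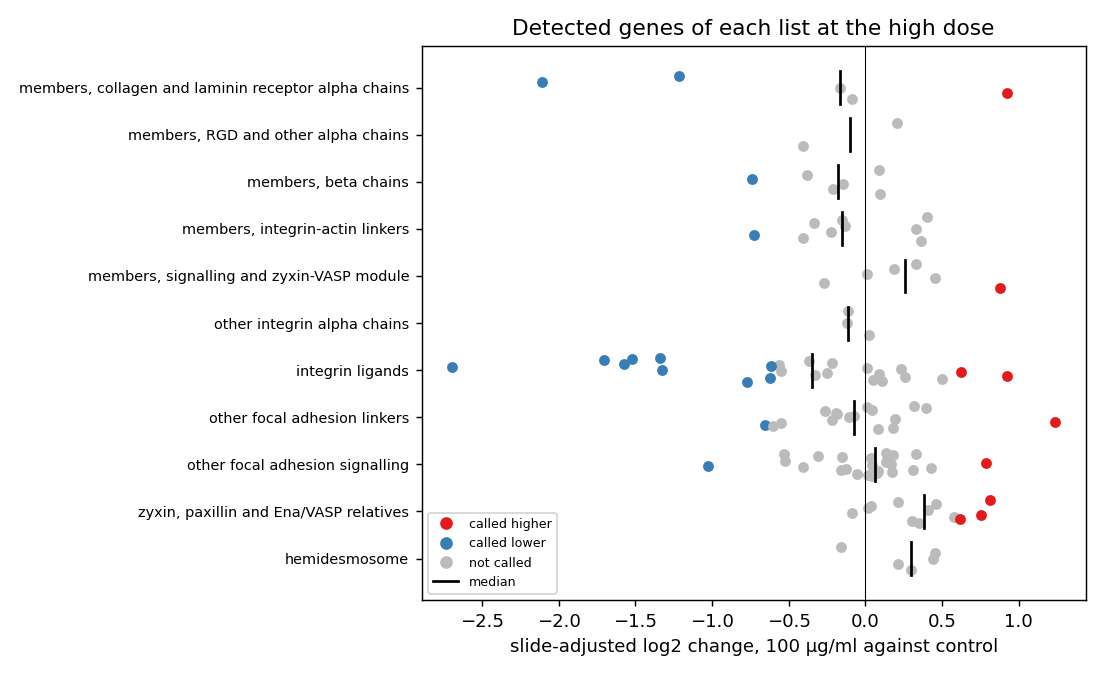
Slide-adjusted log2 change at 100 µg/ml against control (x axis) of each detected gene in the lists of members and of further pathway genes (y axis). Red and blue points were called higher and lower, grey points were not called, and black bars are medians. The ligand list holds 9 genes that fell, and the relatives of zyxin and VASP hold 3 that rose and 0 that fell. Of all detected genes, 5.47% were called higher and 6.44% lower.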

How the data were processed

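The authors hybridised Cy5-labelled sample RNA and Cy3-labelled reference RNA to 2-colour Agilent arrays and swapped no dyes, so that dye bias cancels only where groups are compared. The deposited scanner files give, for each spot, the median intensity of Cy5 and of Cy3, read with Feature Extraction 10.7.3.1 per the file headers. The deposited files also hold the scanner software's log10 ratio, and the authors deposited a matrix of log2 ratios without stating normalization, centring or direction. All 22 matrix columns were most like their own array (correlation median 0.985, lowest 0.840), in the direction of Cy5 over Cy3. The medians of its columns ran from 0.00433 to 0.0267. Depth is not counted on an array, and the number of arrays limits the precision.

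From the intensities, marked spots (0.401% to 6.22% of an array) were set missing, log2(Cy5/Cy3) without background subtraction was normalised by loess (span 0.3), and spots of a probe were combined by the median. Detection required a Cy5 signal over the 5% trimmed mean plus 3 trimmed SDs of 308 negative control spots. Symbols came from transcript identifiers through a RefSeq table for GRCm38.p6 (26413 of 55681 probes, 47.4%), and promoters from RefSeq on that build. Groups were read from the labels. With R 4.3.3, limma 3.58.1 (eBayes with 5.51 prior degrees of freedom) fitted group and slide over 22 arrays, following the study's methods, whose MAANOVA test was not installed. P-values were adjusted over all probes. Gene lists were tested only by counts. Genes named are the 35 members and, from each pathway list, at most 3 increases and 3 decreases called at the high dose. Of these, 2 are not reported here. The members and lists were chosen with earlier results of these data known. On simulated data the fit was checked before use.

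Arrays with the same sample number in the labels resembled each other. Their deviations from the group means correlated in 31 of 31 pairs, from 0.183 to 0.810, and 19 of 22 arrays correlated best with an array of their own number. Same-numbered arrays mostly share a slide, and the part of slide in these correlations was not tested. No arrays were duplicates, with at most 2.36% equal Cy5 signals and a highest correlation of 0.961 between arrays. Alternatives covered background, normalization, filters, thresholds, the slide term, the replicate block, probe choice and omission of each slide and array. The planned normexp correction used median in place of mean signals, which the files do not hold. The Cy5 signal alone, and the alternatives for pathway lists, were added after seeing the data.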

Additional observations from a re-analysis of the deposited data

Results flagged for a closer look

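Among 115 groups of values of detected members, 9 held an array farther from the rest than Dixon's 95% limit allows, where chance gives about 5%. Control array 4 of Itga6 lay at -4.00, against -4.29 for the next and -4.40 at the other end. Control array 1 of Lims1 lay at 1.39, with the other controls at 0.38 to 0.59. Low dose array 1 of Itga3 lay at -0.75 and the others at 0.65 to 1.47. For Actn1, array 1 lay apart in the control group (-0.50, others 0.98 to 1.57), at the low dose (-0.50, others 1.48 to 2.43) and at the medium dose (-0.70, others 1.05 to 1.77). High dose array 2 of Pxn lay at 0.28 and the others at -0.45 to -0.20. Src was high on low dose array 2 (0.53, others 0.07 to 0.21) and on high dose array 2 (0.52, others 0.20 to 0.29).

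The response to the high dose differed from that to the low dose by limma's test for 3 members. The difference was 0.87 on the log2 scale for Itga6, -0.83 for Itga11 and -0.72 for Itgb3.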

How the results depend on the processing

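The number of arrays, and signals near background for Itga1 and Src, limit these results. Of 14 called changes of members, 0 turned sign in the alternatives tried, and the 6 of Itga1 and Itga11 against control were called in all 42 that kept the 1.5-fold threshold and 1 value per gene. Of 91 changes not called, 50 turned sign and 8 were called in at least 1 alternative. The causes of these shifts were not tested.

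Members called against control numbered 2, 3 and 6 in order of dose. They became 2 at the high dose with median centring, 5 at the low and 5 at the medium dose without a fold threshold, 1 at the low and 2 at the high dose with a 2-fold threshold, and 5 at the medium dose without slide 2. Leaving out 1 array gave 2 to 2, 3 to 5 and 6 to 7, with 5 at the medium dose without control array 1 or control array 4. Between the high and low dose, the 3 calls became 1 with normexp, the scanner software's ratio, no slide term, only the groups compared or without slide 1, and 0 with median centring, the series matrix, the ordinary linear model, the 2-fold threshold or without slide 2, 3, 4 or 5. Leaving out 1 array gave 0 to 3, with 0 without low dose array 2, 3, 5 or 6 or high dose array 3 or 5. Omitting low dose array 5, high dose array 5 or slide 5 was the same fit in effect. Without an array these values became 1 for control array 3, low dose array 4, medium dose array 3 and high dose arrays 1, 2, 4 and 6.

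Pathway genes called, 13, 15 and 18 at the 3 doses, became 4, 6 and 10 with median centring and 4, 8 and 8 with a 2-fold threshold. At the low dose they became 5 without the slide term, 7 with only the groups compared, 8 without slide 1, 7 without slide 2 and 5 without slide 3. Leaving out 1 array gave 7 to 13, 13 to 18 and 15 to 20, with 7 at the low dose without low dose array 4 and 8 without control array 3 or 4.

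With the replicate block in place of slide, members called numbered 2, 3 and 6 in the comparisons of low, medium and high dose with control. In that of high with low dose they numbered 3, so pairing by sample number changed no such count. Pathway genes called at the low dose numbered 11.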
